A study of Bos taurus with 34 samples.

Results

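bta-miR-143 and bta-miR-145 are the mature miRNAs of a pair of neighbouring bovine hairpins, and both were counted here in 33 small RNA libraries made from cell-free RNA of cow blood. They are 2 of the 800 mature miRNA names in each count file. They were taken by name, and the pair was chosen with fold changes from these counts already known, namely those of miR-145 between disease statuses and that of miR-143 between sampling days in diseased cows. Those comparisons, and any measure built from them, are therefore given without a p-value, and the counts, shares and calls printed beside them are descriptions from which nothing is read.

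The study followed 17 dairy cows (Bos taurus) after calving. The groups were cows with subclinical endometritis (SCE) at the later sampling (11 libraries), healthy cows at the later sampling (6), SCE cows at the earlier sampling (11) and healthy cows at the earlier sampling (5). In SCE the lining of the uterus is inflamed while the cow shows no visible sign of it, and status was set from cells and tissue taken from that lining. The labels call the samplings day 45 and day 25, whereas the series' design text places them 44 and 21 days after calving. Serum is the material named in the labels, and plasma the one named in the design text. Neither gives a breed, an age or a treatment. The same cows gave both samplings. The file for healthy cow 3 at day 25 was identical to its day-45 file, carried the day-45 title, and was left out. Title numbers ran from 31 to 52 in SCE and from 13 to 24 in healthy libraries, so an order of handling that followed them and the status cannot be told apart.

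miR-143 and miR-145 are cut from one primary transcript. In mammals both are best known from smooth muscle, of blood vessels, gut and uterus, where the cluster is switched on by serum response factor with myocardin and favours the contractile over the proliferating state of the cell. Known targets, worked out mainly in mice and human cells, include the transcription factors KLF4 and KLF5 for miR-145 and ELK1 for miR-143. Epithelial and blood cells make little of either. In RefSeq's annotation of the bovine assembly ARS-UCD2.0, which is not the build the submitters name, MIR143 and MIR145 lie side by side within 1 long non-coding RNA gene, LOC132345768, between the protein-coding genes IL17B and CSNK1A1. A blood sample without cells holds RNA released from many tissues, so more cells of a type and more release per cell cannot be told apart.

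Read depth differed between libraries. Totals ran from 678389 to 19747294 counts in SCE and from 7398849 to 28872153 in healthy libraries at day 45, and from 1343401 to 14085868 in SCE and from 7441148 to 23399406 in healthy libraries at day 25. Levels are given as counts per 1000000 reads (CPM) after scaling by the trimmed mean of M-values (TMM), which sets a common scale from the miRNAs that differ least between libraries. A read stands for a whole mature miRNA, so no length correction applies. Adapters are ligated to some miRNAs more readily than to others, and a ratio of reads of miR-143 and miR-145 is therefore no ratio of molecules, although it can be set side by side between libraries.

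The members of the cluster were very unequal in blood. miR-143 ranked 11 by mean level among the 406 miRNAs that passed the filter on low counts, with a mean of 13277 ± 21009 CPM (SD, n = 33 libraries). miR-145 ranked 138, with 66.6 ± 76.4 CPM (SD, n = 33 libraries). Both had counts in 33 of 33 libraries. The lowest count of miR-143 was 7267 and that of miR-145 was 27, in the day-45 and day-25 libraries of SCE cow 10, the shallowest of the series. The 27 reads of miR-145 at day 25 correspond to 20.1 CPM before scaling, with a 95% Wilson interval of 13.8 to 29.2, which covers counting error only since reads were amplified by PCR. The highest share belonged to miR-143 in SCE cow 13 at day 45, where 855813 of 8468808 reads made 101055 CPM before scaling (95% Wilson interval 100852 to 101258) and placed miR-143 as the second most abundant miRNA of that library. No other name had nearly the same counts as either member. The closest, miR-103 to miR-143 and miR-138 to miR-145, differed by 60.9% and 41% of the larger total when absolute differences were summed over libraries.

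At day 45, miR-145 had a lowest, median and highest level of 6.35, 66.2 and 399 CPM in the 11 SCE cows. In the healthy cows it stood at 59.6, 11.2, 9.23, 27.2, 23.9 and 19.6 CPM in cows 1 to 6. The groups overlapped: 7 of 11 SCE cows exceeded all the healthy ones and 1, cow 14, fell short of them all. Of the 406 miRNAs, 1.48% had at least as many SCE cows above every healthy cow. In the edgeR fit the SCE over healthy log2 fold change of miR-145 was 2.09 with SE 0.68 (a 4.26-fold difference).

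miR-143 overlapped widely at the same sampling. It had 1487, 6371 and 111387 CPM as lowest, median and highest in SCE cows, against 44937, 48736, 8349, 8197, 11585 and 3059 CPM in healthy cows 1 to 6. SCE cow 13 alone lay above every healthy cow and 3 SCE cows lay below every one. The share of all miRNAs with as many on either side was not computed. The log2 fold change was -0.18 with SE 0.75, so the difference was smaller than its error. It was -1.25 without SCE cow 13, 0.14 without healthy cow 1 and 0.43 without healthy cow 2, and single cows thus set its sign.

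At day 25, the lowest, median and highest levels of miR-145 were 18.3, 49.7 and 147 CPM in SCE cows. Healthy cows 1, 2, 4, 5 and 6 had 30.7, 15.9, 5.75, 42.4 and 35.3 CPM. Here 8 of 11 SCE cows exceeded all the healthy ones and none fell short of them all, a count that 4.68% of the 406 miRNAs reached or passed. The SCE over healthy log2 fold change was 1.37 with SE 0.52 (2.58-fold).

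miR-143 stood the other way at day 25. Its lowest, median and highest levels were 1474, 3728 and 19022 CPM in SCE cows, against 6389, 6804, 5880, 11628 and 23925 CPM in healthy cows 1, 2, 4, 5 and 6. Of the 11 SCE cows, 7 lay below every healthy cow and none above, and 5.42% of the 406 miRNAs had as many SCE cows below. The log2 fold change was -0.95 with SE 0.53, a 0.517-fold level in SCE cows. Leaving out single cows gave values from -1.32, without SCE cow 9, to -0.45, without healthy cow 6, the healthy cow with the highest level.

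**Figure D1:**
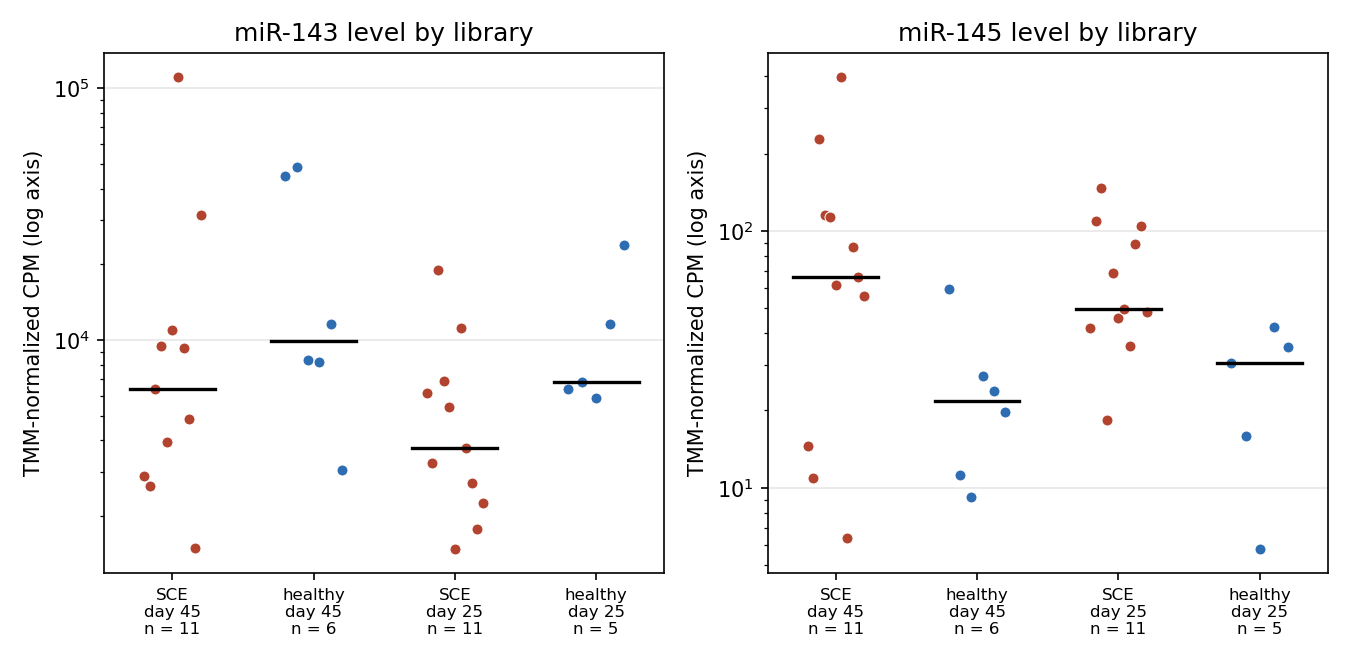
TMM-normalized CPM (log axis) of miR-143 (left) and miR-145 (right) in each library, with black lines at group medians: SCE and healthy cows at day 45, then SCE and healthy cows at day 25. The median of miR-145 is 66.2 CPM in SCE and 21.8 CPM in healthy cows at day 45, while for miR-143 the medians are 6371 and 9967 CPM.

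With the counts of each cow summed over both samplings (day 45 alone for healthy cow 3), the SCE over healthy log2 fold change was 1.69 with SE 0.49 for miR-145 and -0.49 with SE 0.54 for miR-143. For miR-143 it was -1.23 without SCE cow 13, -0.10 without healthy cow 1 and -0.13 with a covariate of miR-451 over miR-23a. At an adjusted p of 0.05 edgeR called neither member in any of the comparisons between statuses. Few miRNAs were called at all, since edgeR called 0% of the 382 tested at day 45, 0.269% of 372 at day 25 and 0.239% of 418 over both days. Many more had an unadjusted edgeR p under 0.05, namely 39 at day 45, 75 at day 25 and 69 over both days. DESeq2, run as an alternative, called miR-145 over both days (log2 fold change 1.66, SE 0.47) among 5.24% of the 286 miRNAs it adjusted p-values for. It called neither member at day 45, where it called 0.134%, or at day 25, where it called 2.68%. edgeR also called miR-145 over both days once SCE cow 7 was left out, at 1.78 with SE 0.45. That fit called 10 of 419 miRNAs, against 1 of 418 with all cows. Because the pair was chosen with fold changes of these comparisons in view, nothing is read from those calls.

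miR-486, a red blood cell miRNA, differed in share between the same groups. It took a median of 36.5% of counts in SCE and 48% in healthy libraries at day 45, and 10.8% in SCE and 45.3% in healthy libraries at day 25. In a fit that also held the log2 of miR-486 over miR-23a, a covariate chosen after seeing the data, the log2 fold change of miR-145 was 2.01 at day 45, 1.43 at day 25 and 1.47 over both days. That of miR-143 was 1.19 at day 45, -0.23 at day 25 and 0.60 over both days, so its sign turned at day 45 and over both days. With miR-486 taken out of the table before scaling, miR-145 stood at 1.99 at day 45 and 1.54 at day 25 and miR-143 at -0.34 and -0.81. miR-145 was on the same side under each of these settings.

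The ratio of the members needs no scaling between libraries and is shown in the plot of the ratio in each cow. At day 45 the lowest, median and highest numbers of miR-143 reads per miR-145 read were 22.4, 177 and 1471 in SCE cows. They were 753, 4339, 904, 301, 485 and 156 in healthy cows 1 to 6. On the log2 scale the ratio averaged 7.03 ± 1.90 in SCE cows (SD, n = 11) and 9.31 ± 1.64 in healthy cows (SD, n = 6), a difference of -2.28 that ran from -2.68 to -1.73 when single cows were left out. 5 of 11 SCE cows lay below every healthy cow.

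At day 25 the lowest, median and highest were 16.9, 79.7 and 377 miR-143 reads per miR-145 read in SCE cows, against 208, 429, 1022, 274 and 679 in healthy cows 1, 2, 4, 5 and 6. The log2 ratio averaged 6.18 ± 1.40 in SCE cows (SD, n = 11) and 8.78 ± 0.93 in healthy cows (SD, n = 5), a difference of -2.60, with a range of -2.87 to -2.30 when single cows were left out. At this sampling 9 of 11 SCE cows lay below every healthy cow, and SCE cows 10 and 13 were the exceptions. How many other pairs of miRNAs reach such counts was not computed at either sampling, so nothing is read from these counts. The ratio combines the values on which miR-145 was chosen, and its difference between statuses is therefore a description. Put as a share, miR-145 made up a median of 0.562% of the reads of the cluster in SCE and 0.169% in healthy cows at day 45, and 1.24% in SCE and 0.233% in healthy cows at day 25.

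**Figure D2:**
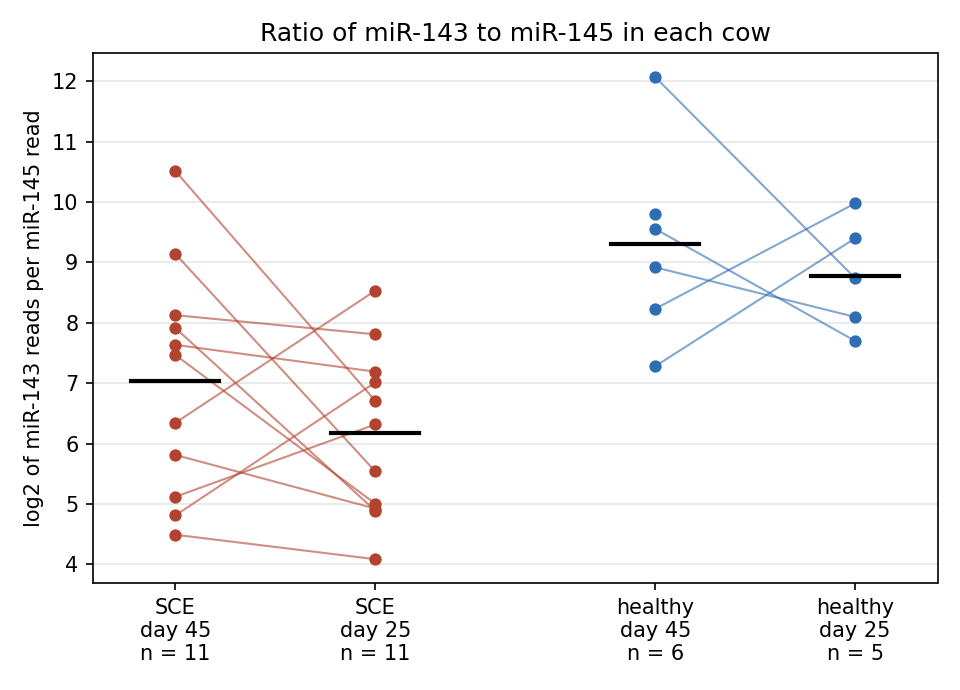
Log2 of the number of miR-143 reads per miR-145 read in each cow, with lines joining the libraries of a cow and black lines at group means: SCE cows at day 45 and day 25, then healthy cows at day 45 and day 25. The means are 7.03 and 6.18 in SCE cows and 9.31 and 8.78 in healthy cows, and the lines of single cows run in both directions.

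Between samplings, single cows moved far and in both directions. In SCE cows miR-143 was higher at day 45 in 6 of 11 cows, with changes on the log2 CPM scale from -1.58 to 3.81 and a median of 0.45. The highest belonged to cows 17, 13 and 12, in which the level at day 45 was 14, 9.99 and 7.41 times that at day 25. The day 45 over day 25 log2 fold change of edgeR, which compares group means, was 1.63 with SE 0.63. It was 0.65 without SCE cow 13, 0.71 with the cow as a replicate block and 0.54 by DESeq2. It was 1.65 with DESeq2 size factors in edgeR, 1.62 with miR-486 removed before scaling and 2.06 without SCE cow 9. DESeq2 and the fit with the block called neither member. This is the day comparison on which miR-143 was chosen. miR-145 was higher at day 45 in 6 of 11 SCE cows as well, with changes from -3.31 (cow 8) to 2.9998 (cow 13) and a log2 fold change of 0.56 with SE 0.50. That value was -0.13 with the cow as a block and -0.0082 without SCE cow 13. Both members were higher at day 45 in 4 SCE cows and both lower in 3, and in the other 4 they moved apart.

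In healthy cows miR-143 was higher at day 45 in 3 of the 5 cows with both samplings. The levels at day 45 were 7.03, 7.16, 1.39, 0.996 and 0.128 times those at day 25 in cows 1, 2, 4, 5 and 6. The log2 fold change was 1.11 with SE 0.68 (95% interval -0.32 to 2.53, edgeR adjusted p = 0.99988). It was 0.44 without healthy cow 2, 0.68 without healthy cow 1, 1.63 without healthy cow 6 and 0.71 with the cow as a block. miR-145 was at 1.94, 0.711, 4.63, 0.565 and 0.559 times its level at day 25 in the same cows, higher in 2 of 5. Its log2 fold change was -0.031 with SE 0.57 (95% interval -1.22 to 1.16, edgeR adjusted p = 0.99988). Neither difference exceeded the spread between libraries in this fit, which took both libraries of a cow as separate. edgeR called 0% of 346 miRNAs between samplings in SCE cows and 0% of 345 in healthy cows, with 14 and 10 at an unadjusted p under 0.05, and DESeq2 called none in either.

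The change over time in SCE cows was also set against that in healthy cows. This difference uses the values on which the pair was chosen and is given as a description. The difference in log2 fold change, SCE minus healthy, was 0.68 with SE 1.03 for miR-143 and 0.65 with SE 0.85 for miR-145, each smaller than its error. edgeR called 0% of 406 miRNAs in this test, with 7 at an unadjusted p under 0.05, and DESeq2 called none. With the cow as a block the values were -0.041 for miR-143 and -0.18 for miR-145. That of miR-143 was also below 0 without SCE cow 13 (-0.29) or healthy cow 6 (-0.059).

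The log2 ratio of miR-143 to miR-145 was higher at day 45 in 8 of 11 SCE cows, by a mean of 0.85 ± 2.1696 (SD, n = 11). As the day change of miR-143 in SCE cows was known when the pair was chosen, that value is a description. The ratio was higher in 3 of 5 healthy cows, by a mean of 0.43 ± 2.34 (SD, n = 5; two-sided exact permutation p = 0.688, and adjusted p = 0.688 over the tests of both statuses). With 5 pairs the smallest p this test can give is 0.0625, so the healthy cows could not have passed the threshold. Without healthy cow 2 the mean in healthy cows was -0.30.

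No relation between the levels of the members from cow to cow was detected within a group. In SCE cows at day 45, Pearson's r between the log2 CPM of miR-143 and miR-145 was 0.44 (permutation p = 0.170, adjusted p = 0.510 over 3 correlations) and Spearman's rho was 0.32 (permutation p = 0.340, adjusted p = 1). Pearson's r came to 0.13 without the 2 cows farthest from the median of miR-143. It was 0.13 without SCE cow 13 alone, 0.48 without SCE cow 17 and 0.58 without SCE cow 14, so the value rested on cow 13. In SCE cows at day 25 r was 0.03 (permutation p = 0.926, adjusted p = 0.926) and rho was -0.02 (permutation p = 0.967, adjusted p = 1). Without the 2 farthest cows r was -0.49. In the 6 healthy cows at day 45 r was 0.22 (exact permutation p = 0.676, adjusted p = 0.926) and rho 0.03 (exact permutation p = 1, adjusted p = 1), and r was 0.02 without the 2 farthest. None was distinguishable from 0, and groups of this size leave room for moderate correlations. The 5 healthy cows at day 25 were too few for this measure.

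**Figure D3:**
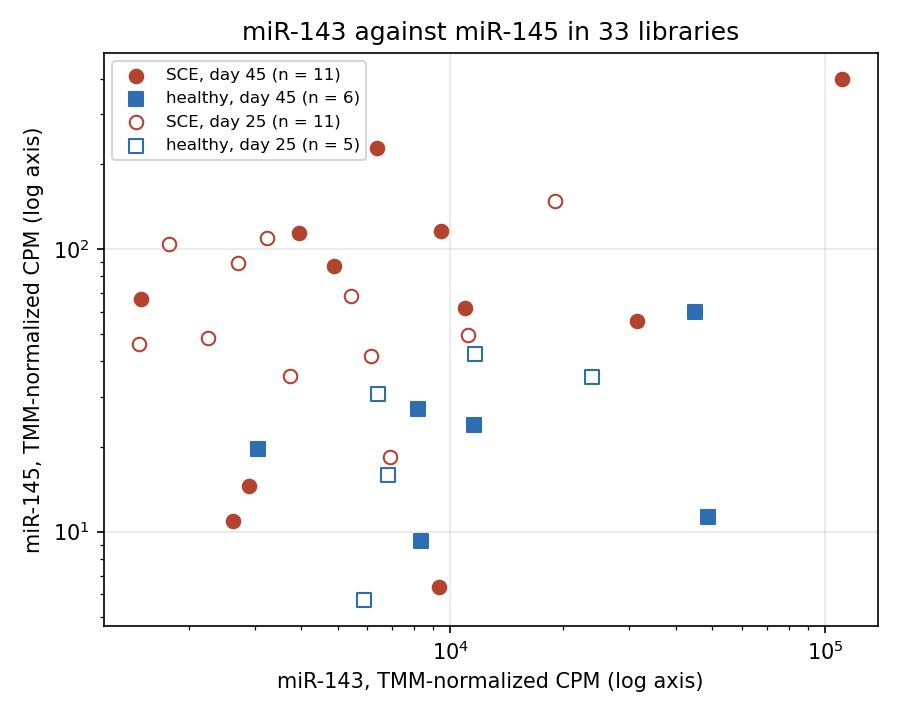
Level of miR-145 against that of miR-143 in the 33 libraries (both in TMM-normalized CPM on log axes); filled symbols are day 45, open symbols day 25, circles SCE cows and squares healthy cows. SCE cow 13 at day 45 is at the top right with 111387 CPM of miR-143 and 399 CPM of miR-145 and no common line runs through either status.

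For each member, other miRNAs followed its level more closely. The following coefficients describe 33 libraries from 17 cows, which share cows, scaling and depth, and carry no test. The 5 miRNAs whose log2 CPM was most like that of miR-143 were miR-10b (r = 0.80), miR-100 (0.79), miR-99a-5p (0.78), miR-99b (0.78) and miR-411a (0.75). miR-10b lies in a HOX gene cluster, miR-99a, miR-99b and miR-100 are members of one seed family, and miR-411a comes from the imprinted DLK1-DIO3 region. The same 5 led once group means had been subtracted, with r from 0.73 to 0.76. miR-145 was number 153 of 405 in likeness to miR-143, at r = 0.11, and number 70 with group means subtracted.

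The 5 most like miR-145 were miR-30f (r = 0.79), miR-885 (0.79), miR-193a-3p (0.78), miR-29d-3p (0.76) and miR-494 (0.74). All 5 were scarce, with mean levels from 2.47 to 13.0 CPM. With group means subtracted they ranked 3, 2, 4, 6 and 5. miR-143 was number 219 of 405 in likeness to miR-145, and number 137 with group means subtracted. Between members the correlation within groups, with group means subtracted, was 0.34.

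Most other miRNAs known from smooth muscle and connective tissue had lower fitted levels in SCE than in healthy cows. The list holds 17 such miRNAs besides the members, all of which were tested. At day 45, 5 were higher and 12 lower in SCE cows, with a median log2 fold change of -0.46 against 0.11 over all miRNAs tested. At day 25, 5 were higher and 12 lower, with a median of -0.41 against -0.05 (7 and 10 with miR-486 taken out before scaling, which moved the median of all miRNAs by 0.14). Of all miRNAs tested, 57.1% were higher in SCE cows at day 45 and 47.8% at day 25. Before scaling, the 17 summed to a median of 45511 CPM in SCE and 53192 CPM in healthy libraries at day 45. At day 25 the order was the other way, with medians of 27536.5 CPM in SCE and 24504 CPM in healthy libraries. edgeR called none of the 17 at either sampling. The 6 most abundant, with their SCE over healthy log2 fold changes at day 45 and then day 25, were as follows. miR-10b stood at -1.60 (SE 0.56) and -1.92 (SE 0.67), and miR-10a, also of a HOX cluster, at -0.60 (SE 0.48) and -1.42 (SE 0.53). miR-221, which favours growth of vascular smooth muscle in rodents, stood at -0.06 (SE 0.44) and -0.79 (SE 0.46). miR-140, best known from cartilage, was within its error at day 45, at -0.08 (SE 0.35), and at -0.41 (SE 0.30) at day 25. miR-99a-5p stood at -1.14 (SE 0.52) and -0.46 (SE 0.60), and miR-100 at -1.24 (SE 0.53) and -0.68 (SE 0.71). Some less abundant miRNAs of the list lay on the other side, and the following were picked after their values were seen. miR-195 stood at 0.66 (SE 0.54) at day 45 and 2.75 (SE 0.69) at day 25, and miR-497, from the same cluster as miR-195, at 1.11 (SE 0.52) and 2.09 (SE 0.53). At day 25 each had an edgeR adjusted p of 0.0695. miR-222, a relative of miR-221 with the same seed, stood at 0.63 (SE 0.38) and 0.94 (SE 0.35).

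**Figure D4:**
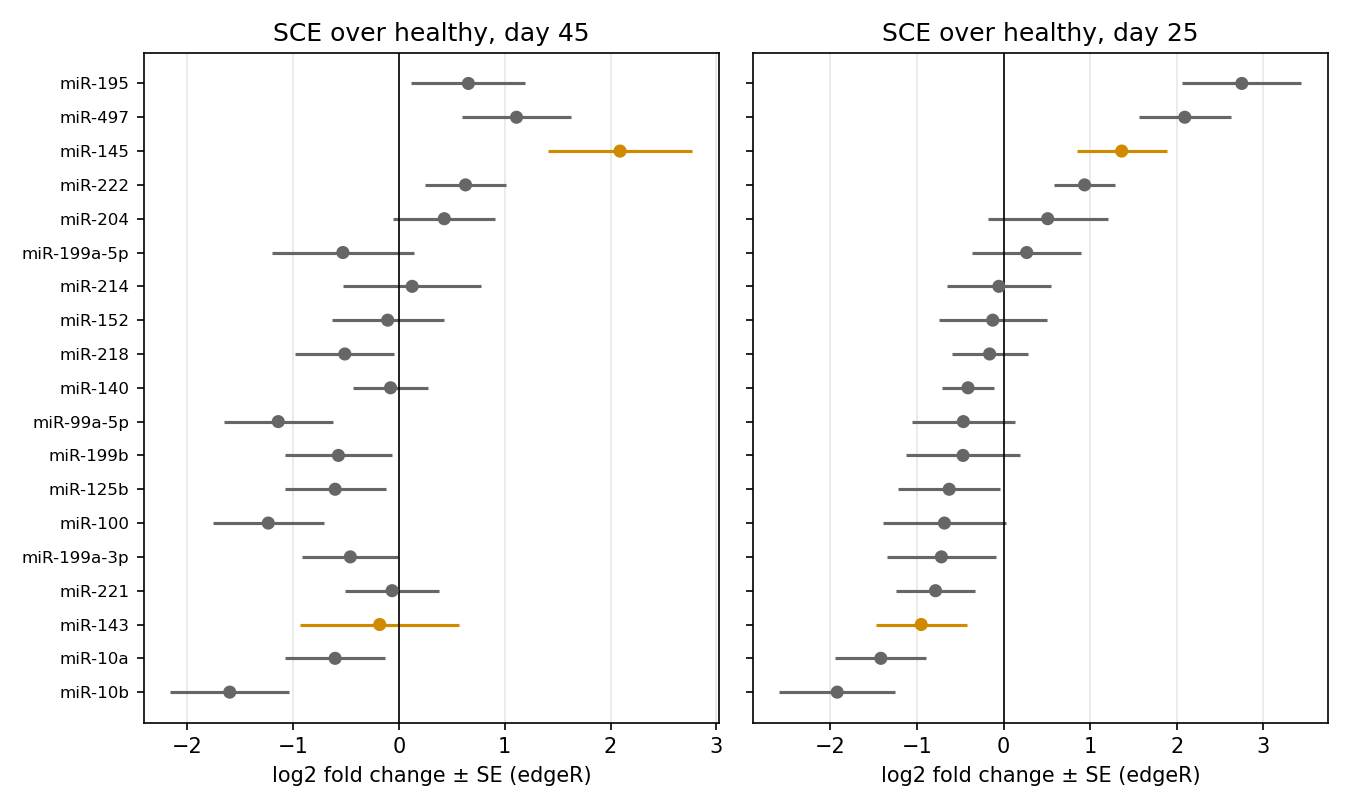
SCE over healthy log2 fold change with its SE from edgeR at day 45 (left) and day 25 (right) for the members (orange) and the 17 other miRNAs of the smooth muscle and connective tissue list (grey), ordered by the day-25 value. miR-145 lies at 2.09 and 1.37, miR-143 at -0.18 and -0.95, and 12 of the 17 others are below 0 at each sampling.

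At day 45 relative to day 25, the same 17 miRNAs had a median log2 fold change of 0.14 in SCE cows, with 10 higher and 7 lower (12 and 5 with DESeq2 size factors), against a median of -0.11 over all miRNAs. In healthy cows the median was 0.46, with 13 higher and 4 lower (9 and 8 with DESeq2 size factors), against 0.01 over all. DESeq2 size factors moved the median of all miRNAs by 0.17 in SCE and by -0.11 in healthy cows, and none of the 17 was called.

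Markers of other sources were present in every group. Before scaling, the 7 red blood cell miRNAs summed to a range of 41828 to 537490 CPM in SCE and 152313 to 731281 in healthy libraries at day 45. At day 25 the sums lay between 42221 and 794374 in SCE and between 248722 and 816801 in healthy libraries. The 7 epithelial miRNAs summed to between 1139 and 13894 CPM in SCE and between 563 and 2525 in healthy libraries at day 45, and to between 935 and 8926 in SCE and between 457 and 2858 in healthy libraries at day 25. The epithelial medians were 1502 CPM in SCE and 1430 CPM in healthy libraries at day 45, and 1654 CPM in SCE and 1177 CPM in healthy libraries at day 25. Each of the 7 had its highest level in SCE cow 9 at day 45. Both endothelial miRNAs were read in every library, with sums of 255 to 5807 CPM in SCE and 552 to 4030 in healthy libraries at day 45, and of 337 to 6870 in SCE and 303 to 4667 in healthy libraries at day 25. Muscle miRNAs of the striated type were scarce. Their 7 members summed to 16.6 to 644 CPM in SCE and 10.8 to 56.3 in healthy libraries at day 45, and to 11.5 to 77.9 in SCE and 9.68 to 23.9 in healthy libraries at day 25. Of these, miR-206 was at 0 in 32 libraries and miR-1 in 27, and the highest sum came from SCE cow 10 at day 45. The leukocyte and platelet list summed to 84303 to 419406 CPM in SCE and 70592 to 220919 in healthy libraries at day 45, and to 36731 to 325011 in SCE and 36622 to 279782 in healthy libraries at day 25. The liver list summed to 14416 to 167571 CPM in SCE and 13354 to 77279 in healthy libraries at day 45, and to 12992 to 105223 in SCE and 9128 to 72659 in healthy libraries at day 25. Positive SCE over healthy log2 fold changes at day 45, among the tested miRNAs of each list, numbered 7 of 7 epithelial, 1 of 6 red blood cell, 0 of 2 endothelial, 3 of 6 leukocyte and platelet, 2 of 3 liver and 3 of 3 striated muscle, against 57.1% of all tested. At day 25 they numbered 6 of 7, 1 of 6, 2 of 2, 4 of 6, 0 of 3 and 2 of 3 in the same order of lists, against 47.8% of all tested. None of these was called at either sampling. The part of these sources in the values of miR-143 and miR-145 was not tested. The fits above with a red blood cell covariate cannot separate that source from status, since the share of miR-486 differed between the same groups.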

How the data were processed

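Small RNA libraries were made, per the labels' protocols, from 10 to 20 ng of small RNA by adapter ligation with 13 or 16 PCR cycles, with no molecular identifiers named. The authors deposited raw counts for each mature miRNA name, in whole reads. Per the submitters' processing notes bcl2fastq 2.17.1.14, the build UMD 3.1 and DESeq2 were used. Aligner, counter and annotation: not given in the sources used here.

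Tests used the edgeR 4.0.16 quasi-likelihood F test (R 4.3.3; TMM, default low-count filter, Benjamini-Hochberg over all miRNAs tested, two-sided). They were run on simulated counts with large planted fold changes and libraries drawn independently. That run covers neither small differences nor libraries that share a cow. DESeq2 was version 1.42.0. SE is the absolute log2 fold change over the square root of F. Ratios used a pseudocount of 0.5, log2 CPM a prior count of 2, and correlations over 11 cows 100000 permutations. Named miRNAs were the members, the 5 most like each, and the 6 most abundant of the smooth muscle list. Members and lists were chosen with earlier results of these data known. The difference between statuses in the change over time, and the ratio change in SCE cows, had been planned as tests and are given without p-values for that reason. Cows pair the samplings by animal number; over the 16 cows with both, the median correlation between a cow's deviations from its group means was 0.25 (from -0.25 to 0.81). Between statuses each cow entered once, and an edgeR p-value there measures the spread between cows. The main edgeR fits between samplings, and of the difference between statuses in that change, took both libraries of a cow as separate. The permutation p of the ratio rests on changes within cows, and that of a correlation on levels re-paired between cows.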

Additional observations from a re-analysis of the deposited data

Results flagged for a closer look

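Of 9 checks for a sample far from the others of its group, made on levels, ratios and changes in healthy cows, 1 met the limit, where chance gives about 1 in 20. miR-145 in healthy cow 1 at day 45 stood at 59.6 CPM, above the 9.23 to 27.2 CPM of the other healthy cows. Without that cow the SCE over healthy log2 fold change of miR-145 at day 45 was 2.57.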

How the results depend on the processing

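The log2 fold change of miR-145 between SCE and healthy cows was positive under every alternative tried, from 1.64 to 2.57 at day 45, from 1.136 to 1.61 at day 25 and from 1.47 to 2.11 over both days. Over both days it was called by DESeq2 (1.66), among 5.24% of 286 miRNAs, and without SCE cow 7, among 10 of 419. Single cows left out moved it from 1.48 to 1.99. For miR-143 the sign turned at day 45 with a covariate of miR-451 over miR-23a (0.16) or of miR-486 over miR-23a (1.19, chosen after seeing the data), and leaving out single cows gave -1.25 to 0.43. Over both days it turned with the miR-486 covariate (0.60). The number of miRNAs called at day 25, which was 1, became 4 with DESeq2 size factors, 14 with DESeq2, 6 with no filter, 4 with miR-486 removed, 2 with the miR-451 covariate, 2 with all 33 libraries in 1 fit, and 0 to 7 without single cows. At day 45 it was 1 with DESeq2 and 1 with the miR-451 covariate, against 0. Over both days it was 15 with DESeq2, 2 with no filter, 2 with miR-486 removed, 0 with either covariate and 0 to 10 without single cows, against 1. With the cow as a replicate block, day 45 over day 25 for miR-145 was -0.13 in SCE and 0.13 in healthy cows, and the difference between statuses in that change was -0.041 for miR-143 and -0.18 for miR-145; the block changed no call. Leaving out single cows gave -0.0082 to 0.75 for miR-145 in SCE cows, -0.35 to 0.12 for miR-145 in healthy cows, and -0.29 to 1.08 for the difference between statuses of miR-143. That last test called 1 miRNA with no filter. The change of the ratio in healthy cows ran from -0.30 to 1.07 without single cows, and the correlation in SCE cows at day 25 from -0.42 to 0.21. The correlation in healthy cows at day 45 was -0.12 with CPM by library total, and was not run without single cows, since 5 cows are below the minimum of 6. The cause of these changes was not tested. Low counts limit miR-145 in shallow and deeper libraries alike. The lowest was 27 reads in SCE cow 10 at day 25. Healthy cow 4 had 39 at day 25, healthy cows 3 and 2 had 58 and 61 at day 45, and SCE cow 14 had 77 at day 45.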
